A study of Rattus norvegicus with 24 samples.

Results

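The hypertrophic zone of the rat tibial growth plate was compared with its resting zone, the opposite ends of the path along which a cartilage cell (chondrocyte) matures. The members were chosen by title: the 5 arrays titled hypertrophic zone and the 5 titled resting zone, 10 of the 24 arrays in the series, described over all 31042 probe sets that are not controls. Both groups came from the proximal tibiae of the same male rats aged 1 week, numbered 1 to 5, which had not been castrated and for which the labels name no treatment, genotype or strain. Each array held RNA of 1 zone of 1 animal, cut by hand from stained frozen sections 60 µm thick. A strip cut this way holds every cell type lying in it. The other 14 arrays (5 proliferative zone, 5 transition zone, 4 epiphyseal cartilage) entered the fit to share its estimate of the spread.

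In the growth plate, resting chondrocytes form a reserve next to the epiphysis and feed columns of dividing proliferative cells. Those cells stop dividing, enlarge into hypertrophic chondrocytes and surround themselves with a matrix that mineralizes and is then invaded by vessels and replaced by bone. Indian hedgehog, a secreted signal made by prehypertrophic and hypertrophic cells, and parathyroid hormone-related protein, made near the resting end, form a feedback loop that sets when cells leave the dividing state. Bone morphogenetic proteins (BMPs), Wnts and fibroblast growth factors act along the same axis.

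Of 19237 tested probe sets, 4052 (21.1%) changed at least 2-fold with an adjusted p below 0.05 in limma, 1793 (9.32%) higher and 2259 (11.7%) lower in the hypertrophic zone. Values are MAS5 signals, a linear brightness scaled to one trimmed mean per array, and each gene below is represented by its brightest tested probe set. At the level of 10567 genes, 1069 (10.1%) rose and 1074 (10.2%) fell, and the median log2 fold change of all genes was 0.00. Counts of list members below are to be read beside these shares. Of the genes that rose, 986 moved the same way in 5 of 5 animals, and of those that fell, 992 did. The 5 hypertrophic values and the 5 resting values did not overlap for 2574 genes (24.4%), whether or not they were called. Log2 fold changes run hypertrophic minus resting, with their standard error, on the log2(signal + 16) scale, which understates changes of dim genes. Of the genes that rose, 201 lay below the array median in every resting array, and of those that fell, 183 lay below it in every hypertrophic array, so that their fold rests on a level near background. Precision is limited by having 5 arrays per zone, although the spread was estimated over all 24.

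**Figure D1:**
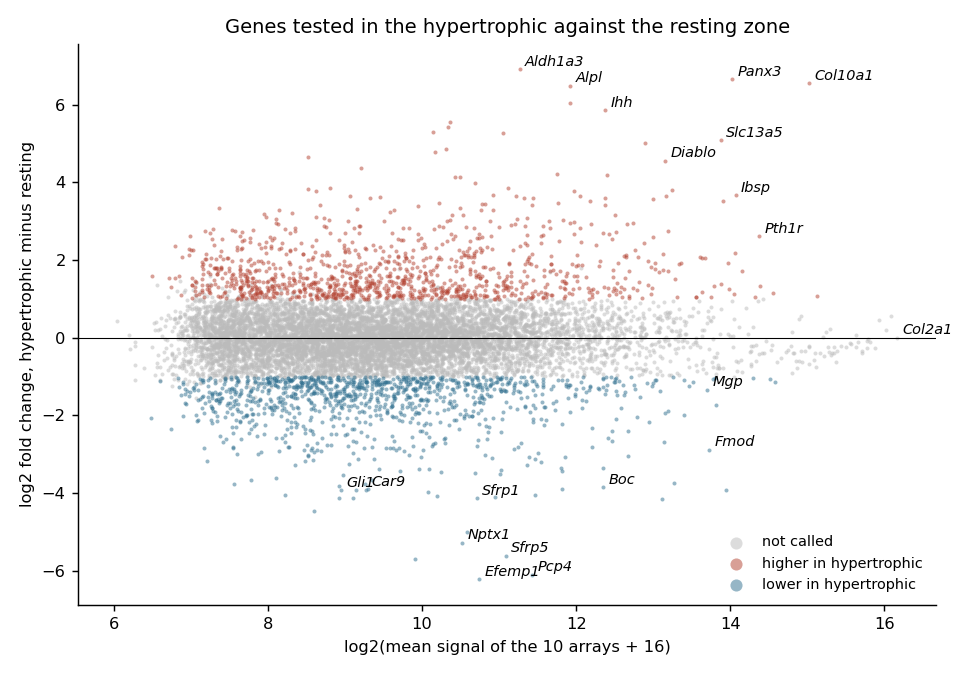
Each point is 1 of 10567 tested genes, with the log2 of its mean signal over the 10 arrays plus 16 on the horizontal axis and its log2 fold change, hypertrophic minus resting, on the vertical axis. The 1069 genes called higher are red, the 1074 called lower are blue and the rest are grey, and named genes are labelled.

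The arrays were first compared with each other. Within the hypertrophic zone arrays correlated at r between 0.872 and 0.917 over probe sets, and within the resting zone between 0.902 and 0.931, against 0.733 to 0.816 between the zones. The median array signal was 179.84 ± 21.07 in hypertrophic and 178.86 ± 17.75 in resting arrays (SD, n = 5 each). The log2 ratio of 3′ to 5′ signal, which grows as RNA is shortened, averaged 2.96 ± 0.54 in hypertrophic and 2.76 ± 0.40 in resting arrays for Gapdh (SD, n = 5 each; two-sided exact sign-flip permutation p = 0.4375). For actin it averaged 4.31 ± 0.30 in hypertrophic and 4.03 ± 0.25 in resting arrays (SD, n = 5 each; exact p = 0.25). With 5 pairs this test cannot give a p below 0.05, so it cannot show that the zones were alike. The hypertrophic ratio was the higher one in 4 animals for Gapdh and in 3 for actin. Acan, the main proteoglycan of cartilage and a gene named after its values were seen, was bright at both ends. Its signals were 29176 to 62228 in hypertrophic and 28094 to 44709 in resting arrays. Of the 6 tested chondrocyte markers, Acan among them, 1 rose and 1 fell. In bulk strips of tissue, fewer cells of a type and less RNA per cell cannot be told apart.

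Genes that define hypertrophic cartilage carried some of the largest rises. Of 18 tested genes on a list of hypertrophy genes, 13 rose and 0 fell, with a median log2 fold change of 2.11 against 0.00 over all genes. Col10a1 encodes collagen X, the short-chain collagen of hypertrophic matrix. Its signals were 118264, 64624, 35544, 46026 and 63170.4 in the hypertrophic arrays of animals 1 to 5, against 235.9, 726.7, 490.4, 524.7 and 2136 in the resting arrays of those animals. Every hypertrophic array lay far above every resting array, at a log2 fold change 6.55 ± 0.46, adjusted p = 3.61e-11. Panx3, a channel gene of maturing chondrocytes and osteoblasts, had signals of 47409, 38425, 29962, 20424 and 28898 in hypertrophic arrays, against 298.3, 377.4, 236.9, 390.0 and 222.8 in resting arrays (log2 fold change 6.66 ± 0.28, adjusted p = 5.13e-15). The groups did not overlap in this gene either, and in the transition zone, which lies between proliferative and hypertrophic cartilage, its mean of 30632 was already near the hypertrophic mean of 33024.

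Promoter windows of 300 bases are shown for 4 of the genes called, namely Col10a1, the collagenase gene Mmp13, the bone matrix gene Ibsp and, for a gene that was high at the resting end, the carbonic anhydrase gene Car9. Each runs from 250 bases before to 50 bases after the start of the gene on its own strand, from RefSeq on build GRCr8, with Col10a1 at chr20:39737286-39737585 (plus strand), Mmp13 at chr8:12782579-12782878 (plus strand), Ibsp at chr14:5757193-5757492 (minus strand) and Car9 at chr5:62558774-62559073 (plus strand). Capitals mark matches on either strand to a TATA box (TATAAA), the core site of RUNX factors (TGTGGT), the site of AP-1, the Fos and Jun dimer (TGAGTCA), or the core of a hypoxia response element (ACGTG).
Col10a1: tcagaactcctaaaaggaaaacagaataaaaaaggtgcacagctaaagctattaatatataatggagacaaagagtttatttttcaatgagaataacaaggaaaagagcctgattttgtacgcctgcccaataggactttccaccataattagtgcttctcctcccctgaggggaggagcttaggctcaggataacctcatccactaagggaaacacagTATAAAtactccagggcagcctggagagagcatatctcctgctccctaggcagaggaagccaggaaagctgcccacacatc
Mmp13: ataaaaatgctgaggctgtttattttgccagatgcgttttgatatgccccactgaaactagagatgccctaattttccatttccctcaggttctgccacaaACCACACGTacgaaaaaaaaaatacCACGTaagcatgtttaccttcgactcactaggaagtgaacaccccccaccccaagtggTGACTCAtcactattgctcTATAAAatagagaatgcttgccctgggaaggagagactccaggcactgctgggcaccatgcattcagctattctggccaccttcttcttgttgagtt
Ibsp: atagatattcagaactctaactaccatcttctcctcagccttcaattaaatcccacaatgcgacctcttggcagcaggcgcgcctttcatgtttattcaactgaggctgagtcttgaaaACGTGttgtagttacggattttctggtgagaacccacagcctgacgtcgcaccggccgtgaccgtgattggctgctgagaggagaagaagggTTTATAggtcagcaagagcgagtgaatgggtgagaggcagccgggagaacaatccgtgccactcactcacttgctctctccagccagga
Car9: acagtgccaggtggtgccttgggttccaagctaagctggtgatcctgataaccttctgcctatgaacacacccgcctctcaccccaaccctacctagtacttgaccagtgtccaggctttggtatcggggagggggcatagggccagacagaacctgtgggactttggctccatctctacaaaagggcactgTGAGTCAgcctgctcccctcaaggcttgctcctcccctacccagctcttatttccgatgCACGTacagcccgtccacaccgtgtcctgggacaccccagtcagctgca
The Col10a1 window held a TATA box at 31 to 26 bases before the start and no other searched motif. In the Mmp13 window a RUNX core, read on the opposite strand, overlapped 1 of 2 hypoxia cores, and an AP-1 match lay 66 to 60 bases before the start. Among 27457 promoters of the same length, 14.3% held the TATA letters, 16.9% the RUNX core, 4.53% the AP-1 letters and 19.7% the hypoxia core. A match describes the letters only and shows no binding.

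The other members of the hypertrophy list had smaller folds. Mmp13, which encodes the collagenase that degrades cartilage collagen, had signals of 13034, 8995, 7704, 24692 and 8554 in hypertrophic arrays, against 19420.3, 1372, 2875, 784.3 and 1769 in resting arrays (log2 fold change 2.15 ± 0.64, adjusted p = 0.00908). The resting array of animal 1 exceeded 4 of the 5 hypertrophic arrays, so the groups overlapped, and without animal 4 the gene was not called (adjusted p = 0.0806). The summed signal of osteoclast and macrophage markers was also highest in these 2 arrays, at 87017 in the hypertrophic array of animal 4 and 26063 in the resting array of animal 1, and its part in Mmp13 was not tested. Foxa2 and Foxa3, forkhead factors of hypertrophic chondrocytes, rose by 2.21 ± 0.18 and 2.06 ± 0.45 on the log2 scale, and Dlx5, a homeobox factor of cartilage and bone, by 2.53 ± 0.33. Foxa3 was dim and its groups overlapped, at 111.3 to 380.3 in hypertrophic and 10.2 to 139.4 in resting arrays. Runx3, a Runt factor that drives chondrocyte maturation, rose by 1.24 ± 0.17, although its second probe set was not called (0.29 ± 0.25) and its mean signal was higher in the proliferative zone (4294) and transition zone (3077) than in the hypertrophic zone (1331). Of the MEF2 factors, which switch on hypertrophy genes, Mef2d rose by 1.57 ± 0.16. Mef2c missed the 2-fold limit at 0.96 ± 0.16, although its signals, 13755 to 18169 in hypertrophic and 6661 to 10007 in resting arrays, did not overlap and a second probe set was called at 1.23 ± 0.15, and the gene was called without animal 3 or the hypertrophic array of animal 4 (both 1.04). Mef2a stood at -0.54 ± 0.15, and its other probe sets at -0.93 ± 0.19, -0.92 ± 0.20 and -0.61 ± 0.40, none of them called. Vegfa, the growth factor that draws vessels into hypertrophic cartilage, was not called: its signals were 3036, 2962, 2269, 3698 and 5354 in hypertrophic arrays, against 2193, 3839.6, 7184, 5876 and 8427 in resting arrays (log2 fold change -0.58 ± 0.31, adjusted p = 0.15), and its second probe set stood at 0.40 ± 0.38. Cd200 and the chloride cotransporter gene Slc12a2 were also not called (-0.31 ± 0.32 and 0.63 ± 0.13).

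**Figure D2:**
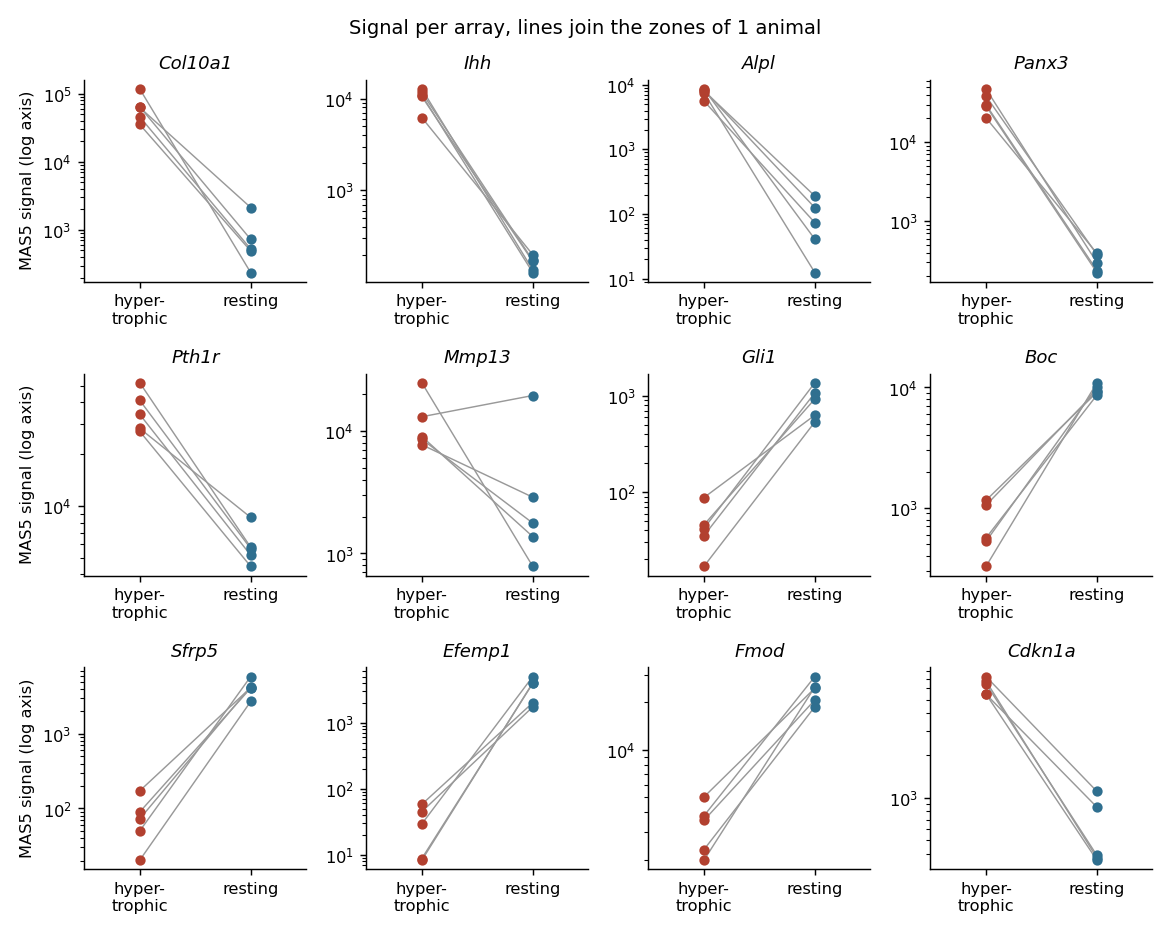
MAS5 signal (log axis) of 12 genes in the hypertrophic array (left) and the resting array (right) of each animal, with a line joining the 2 zones of 1 animal. The groups are apart in each gene except Mmp13, where the resting array of animal 1 lies among the hypertrophic arrays.

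Of 17 tested mineralization genes, 10 rose and 1 fell (median log2 fold change 1.36). Alpl, the phosphatase that destroys the mineralization inhibitor pyrophosphate, had signals of 8259, 8638, 7534, 5634 and 8105 in hypertrophic arrays, against 125.4, 40.8, 12.4, 73.5 and 189.9 in resting arrays (log2 fold change 6.49 ± 0.33, adjusted p = 1.02e-13). Resting signals all lay below the median of their arrays, and the groups were far apart. Phospho1, a matrix vesicle phosphatase that frees phosphate from lipids, ranged over 3548 to 7960.2 in hypertrophic and 213.5 to 798.8 in resting arrays (log2 fold change 3.61 ± 0.23, adjusted p = 4.68e-12). Slc20a1, a phosphate importer, rose by 1.58 ± 0.17. Ibsp, an acidic bone matrix protein shown above by its promoter, had signals of 40877, 36879, 20442, 33551 and 25412 in hypertrophic arrays, against 3853, 709.2, 3334, 1678 and 4866 in resting arrays (log2 fold change 3.67 ± 0.39, adjusted p = 4.28e-08). Its mean was only 3889 in the transition zone, so this gene, unlike Panx3, was far higher in the hypertrophic strips than in those just before them. Mgp, which encodes a protein that blocks mineralization, was the member that fell: 7071, 4974, 6037, 11744 and 8139 in hypertrophic arrays, against 27581, 13318, 19544, 16788 and 17645 in resting arrays, without overlap (log2 fold change -1.34 ± 0.18, adjusted p = 1.02e-06). Spp1, the phosphoprotein osteopontin, had 1625, 1092, 1181, 21853 and 1416 in hypertrophic arrays, against 742.0, 538.2, 849.3, 557.9 and 733.5 in resting arrays (log2 fold change 1.75 ± 0.53, adjusted p = 0.00962). Animal 4 alone was far above the other hypertrophic arrays, and without that array the fold change was 0.88 (adjusted p = 0.0268), below the 2-fold limit. Dmp1 and Phex, genes of bone-embedded cells named after their values were seen, were highest in the same array, at 11406 and 3707, against at most 1076 and 408.6 in the other hypertrophic arrays. Without that array Phex stood at 0.75 (adjusted p = 0.191), and it was also not called without animal 2 (adjusted p = 0.113), animal 3 (adjusted p = 0.0711) or the resting array of animal 1 (adjusted p = 0.0535).

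The 15 largest rises reached beyond the hypertrophy and mineralization lists. Aldh1a3, an enzyme that makes retinoic acid, led them with signals of 5140.5, 5490.0, 5024, 3449.7 and 5236 in hypertrophic arrays, against 29.5, 78.5, 16.8, 10 and 12.1 in resting arrays (log2 fold change 6.91 ± 0.37, adjusted p = 2.32e-13). Resting signals were all below the array median, and the mean in the transition zone was 967.9. Slc13a5, which imports citrate into cells, had the smallest standard error of the 15. Its signals were 39829, 31896, 18683, 24749 and 30865 in hypertrophic arrays, against 867.9, 532.2, 625.2, 887.4 and 1384 in resting arrays (log2 fold change 5.09 ± 0.17, adjusted p = 1.09e-16). The groups did not overlap. This standard error was estimated over all zones, so it does not measure how even the rise was across animals. Enpp2 encodes autotaxin, a secreted enzyme that makes the lipid signal lysophosphatidic acid, and had 8981 to 18759.8 in hypertrophic and 337.4 to 580.5 in resting arrays (log2 fold change 5.01 ± 0.18, adjusted p = 4.11e-16). Pnpla3, a lipase-like gene of lipid droplets, rose by 5.27 ± 0.28, and Gpx2, a glutathione peroxidase, by 5.56 ± 0.42. Col13a1, a collagen anchored in the cell membrane, rose by 5.44 ± 0.70, with means of 39.6 in the resting, 147.7 in the transition and 2515 in the hypertrophic zone. Irx5, a homeobox factor, and Slco2b1, an organic anion transporter, rose by 5.30 ± 0.41 and 6.04 ± 0.46, but a second, dimmer probe set of each was not called (1.05 ± 0.45 and 1.02 ± 0.53). Sgsm1 and Rasgef1b, regulators of small GTPases, rose by 4.87 ± 0.30 and 4.78 ± 0.34, and Rfx4, a winged-helix factor, by 4.65 ± 0.43. Among the 1069 genes that rose, the highest of the 5 zone means lay in the hypertrophic zone for 886, in the transition zone for 155, in epiphyseal cartilage for 16 and in the proliferative zone for 12, a description in which the resting zone could not be highest. Over all tested genes the highest mean lay in the hypertrophic zone for 25.6% and in the transition zone for 20.5%.

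**Figure D3:**
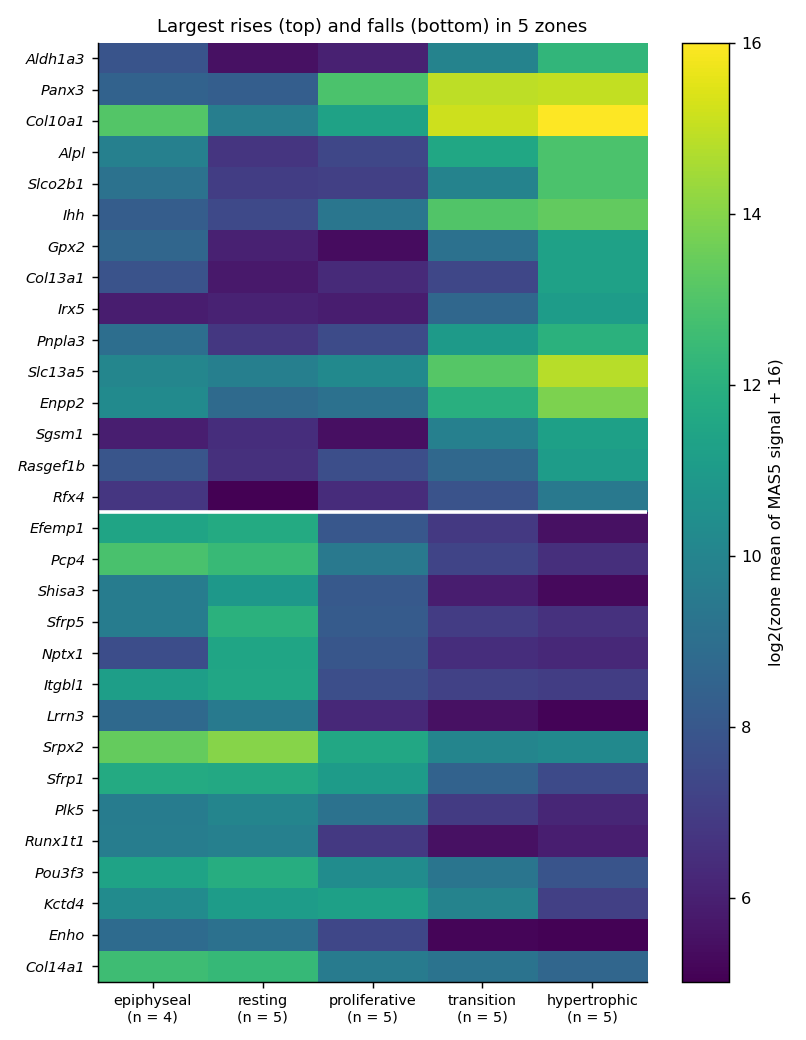
Rows are the 15 largest rises (above the white line) and the 15 largest falls (below it), columns are the 5 zones from epiphyseal cartilage to the hypertrophic zone, and colour is the log2 of the zone mean of MAS5 signal plus 16. Panx3 is bright from the proliferative zone on, Aldh1a3 and Irx5 only towards the hypertrophic end, and Kctd4 stays bright through the proliferative zone.

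At the resting end, Efemp1 fell most in the hypertrophic zone. It encodes fibulin-3, an extracellular matrix glycoprotein, and had signals of 8.3, 8.8, 29.4, 58.2 and 45.1 in hypertrophic arrays, against 4036, 3958, 5019.9, 2015 and 1742 in resting arrays (log2 fold change -6.22 ± 0.36, adjusted p = 1.03e-12). Every hypertrophic signal was far below every resting signal. Pcp4, a calmodulin-binding peptide, had 33.1, 185.8, 74.5, 56.2 and 18.7 in hypertrophic arrays, against 4384, 2874, 5772, 7906 and 6065 in resting arrays (log2 fold change -6.11 ± 0.39, adjusted p = 6.77e-12), again without overlap. Shisa3, a gene that dampens Wnt and FGF receptors, fell by 5.69 ± 0.29 and Nptx1, a secreted pentraxin first known from neurons, fell by 5.28 ± 0.45. Itgbl1, an integrin-like secreted protein, fell by 4.99 ± 0.39, Lrrn3, a leucine-rich membrane protein, fell by 4.45 ± 0.49, and Srpx2, a secreted sushi-repeat protein, fell by 4.14 ± 0.26. Srpx2 had 565.9 to 3232 in hypertrophic and 11735 to 24268 in resting arrays, and the hypertrophic array of animal 4 held the highest of the hypertrophic values. Col14a1, a collagen on the surface of fibrils, fell by 4.04 ± 0.35 and the corepressor gene Runx1t1 by 4.12 ± 0.52. Pou3f3, a POU-domain factor, fell by 4.11 ± 0.23, Enho, which encodes the peptide adropin, fell by 4.05 ± 0.46, and Plk5, of the polo-like kinase family, fell by 4.12 ± 0.38. Kctd4 fell by 4.07 ± 0.20, and its mean was as high in the proliferative zone (2417) as in the resting zone (2189). Meg3, a long non-coding RNA named after its values were seen, had 956.7 to 2074 in hypertrophic and 10313 to 29652 in resting arrays (log2 fold change -3.74 ± 0.19, adjusted p = 1.11e-13). Of the 1074 genes that fell, the resting zone had the highest zone mean for 651, the proliferative zone for 243, epiphyseal cartilage for 169 and the transition zone for 11. By the choice of these genes the hypertrophic zone could not be highest. Over all tested genes the shares were 19.6% for the resting zone, 19.4% for the proliferative zone, 15% for epiphyseal cartilage and 20.5% for the transition zone.

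A list of genes linked to resting chondrocytes was split. Of 9 tested members, 5 fell and 3 rose (median -1.27). Sfrp5, a secreted Wnt inhibitor, had signals of 49.9, 172.2, 89.7, 72.4 and 20.2 in hypertrophic arrays, against 5893, 4179, 4119.7, 4298 and 2726 in resting arrays (log2 fold change -5.62 ± 0.33, adjusted p = 1.63e-12). All resting arrays were far above all hypertrophic arrays. Ucma, a matrix protein of young chondrocytes, ranged over 102.6 to 196.1 in hypertrophic and 1366 to 2436 in resting arrays (log2 fold change -3.39 ± 0.23, adjusted p = 2e-11), while its mean in the proliferative zone was 1537, close to the resting mean of 1806. Grem1, a BMP antagonist, fell by 3.08 ± 0.39 and Bmp3, an atypical BMP that opposes the others, fell by 3.45 ± 0.42. Grem1 and Bmp3 were lower still in the proliferative zone, at means of 30.7 and 63.3. The rises were those of Barx1, a homeobox factor (2.04 ± 0.35), Nt5e, the surface enzyme CD73 that makes adenosine (1.59 ± 0.20), and Clu, the chaperone clusterin. Nt5e ranged over 642.5 to 1657 in hypertrophic and 246.9 to 417.3 in resting arrays, without overlap.

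In the hedgehog pathway, the ligand gene Ihh rose at the hypertrophic end, and Smo, Boc, Gli2 and Gli1 of the receiving side fell. Of the 12 tested members of the list for hedgehog and parathyroid hormone-related protein, 4 rose and 5 fell. Ihh had signals of 12716, 10515, 10934, 6204 and 11682 in the hypertrophic arrays of animals 1 to 5, against 136.0, 168.4, 127.1, 198.9 and 172.6 in their resting arrays (log2 fold change 5.86 ± 0.40, adjusted p = 2.03e-11). The hypertrophic array of animal 4 was the lowest of its zone and still far above every resting array. Disp1, which releases hedgehog from the cells that make it, rose by 1.49 ± 0.22, with 954.1 to 1422 in hypertrophic and 288.7 to 676.8 in resting arrays. Smo, the membrane protein that passes the signal on, had 356.8, 244.8, 352.8, 487.4 and 286.8 in hypertrophic arrays, against 1270.2, 855.0, 1138, 1226 and 1437 in resting arrays (log2 fold change -1.75 ± 0.17, adjusted p = 1.4e-08). Boc, a hedgehog co-receptor, had 326.0, 561.3, 525.7, 1154 and 1050.3 in hypertrophic arrays, against 10954, 8660.5, 10170.0, 9124 and 9432 in resting arrays (log2 fold change -3.85 ± 0.29, adjusted p = 1.56e-10). For both receiving genes every hypertrophic array lay below every resting array. Gli2, the main activating factor of the pathway, fell by 2.19 ± 0.27, with 239.8 to 428.1 in hypertrophic and 1086 to 2381 in resting arrays.

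Gli1 and Hhip are themselves induced by hedgehog signalling and so serve as readouts of it. Gli1 had 45.7, 87.8, 16.9, 35.2 and 41.9 in hypertrophic arrays, against 934.3, 633.0, 537.8, 1079.5 and 1376 in resting arrays (log2 fold change -3.93 ± 0.31, adjusted p = 2.76e-10). All hypertrophic values lay below the median of their arrays, and the gene's highest zone mean was 1901 in the proliferative zone. Hhip, a decoy that binds hedgehog, had 120.3, 106.2, 32.8, 28.7 and 66.6 in hypertrophic arrays, against 471.9, 609.3, 405.5, 385.1 and 610.6 in resting arrays (log2 fold change -2.68 ± 0.39, adjusted p = 4.11e-06), also without overlap. Sufu, an inhibitor of the Gli factors, was dim and only just called, with 257.7, 165.4, 113.9, 61.2 and 280.8 in hypertrophic arrays, against 72.5, 99.3, 14.5, 160.7 and 31.4 in resting arrays (log2 fold change 1.17 ± 0.47, adjusted p = 0.0487). The groups overlapped, and the call was lost without any 1 of animals 1, 2, 3 and 5 (adjusted p between 0.0812 and 0.226) or without the animal block (adjusted p = 0.0659). Dhh, another hedgehog ligand, and the ciliary regulators Kif7 and Stk36 were not called (0.58 ± 0.47, -0.57 ± 0.19 and 0.50 ± 0.40). Pth1r, the receptor of parathyroid hormone-related protein, had 51953, 34020.3, 27106, 28189.9 and 41055 in hypertrophic arrays, against 5750.2, 5169, 4449.6, 8569 and 5648 in resting arrays (log2 fold change 2.61 ± 0.16, adjusted p = 4.73e-12). The groups did not overlap, while a dim second probe set was not called (0.44 ± 0.26). Pthlh, Ptch1 and Gli3 were not analysed here.

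Most BMP genes that changed rose at the hypertrophic end, and most BMP antagonists that changed fell. Of 22 tested BMP ligands, receptors and mediators, 7 rose and 2 fell, while of 8 antagonists 1 rose and 4 fell (medians 0.50 and -0.85). Bmp2 had signals of 8085, 9092, 9831, 4905 and 5649 in hypertrophic arrays, against 463.2, 395.7, 571.8, 579.8 and 556.8 in resting arrays (log2 fold change 3.79 ± 0.19, adjusted p = 4.86e-14). Bmp6 had 4628, 4797, 4303, 2361 and 4492 in hypertrophic arrays, against 241.5, 152.3, 208.0, 377.6 and 389.7 in resting arrays (log2 fold change 3.87 ± 0.25, adjusted p = 6.77e-12). Neither ligand overlapped between zones, and animal 4 had the lowest hypertrophic value of both. Id1, a direct BMP target, rose by 1.30 ± 0.20, though its groups overlapped. The inhibitory genes Smad6 and Smad7, feedback targets of the pathway named after their values were seen, were also among the 7 that rose. Smad6 was not called without animal 1 (1.18, adjusted p = 0.0848) or animal 3 (1.27, adjusted p = 0.0521). The other 13 members of this list were not called, some of the Id genes among them. A dim second Smad6 probe set was not called (0.55 ± 0.67). Gdf10, a relative of Bmp3, fell by 2.17 ± 0.36, and its mean was 5086 in the proliferative zone, against 325.1 in the resting and 74.8 in the hypertrophic zone. Among the antagonists, Bmper ranged over 9.1 to 181.9 in hypertrophic and 785.2 to 1236 in resting arrays (log2 fold change -3.11 ± 0.33, adjusted p = 3.98e-08). Chrd, which traps BMPs, fell by 1.42 ± 0.27 and Fstl3, which traps activins, fell by 1.65 ± 0.33, both with overlapping groups, and a dim second Fstl3 probe set was not called (adjusted p = 0.113). Bambi, a decoy receptor that BMP signalling induces, was the antagonist that rose, with 1213 to 2122 in hypertrophic and 216.8 to 392.6 in resting arrays (log2 fold change 2.27 ± 0.19, adjusted p = 9.55e-10). Bmp1, Smad4, Fstl1 and Twsg1, bright members of these lists, were not called (0.47 ± 0.14, 0.76 ± 0.13, -0.27 ± 0.13 and 0.28 ± 0.16), although a dim second Smad4 probe set was (1.39 ± 0.29).

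Wnt genes showed a like arrangement. Of 18 tested ligands, receptors and mediators, 5 rose and 1 fell (median 0.40), and of 7 secreted inhibitors 0 rose and 4 fell (median -1.05). Wnt4 had 9498, 5357, 8278, 3481 and 6033 in hypertrophic arrays, against 598.9, 229.9, 168.9, 569.9 and 229.4 in resting arrays (log2 fold change 4.22 ± 0.26, adjusted p = 2.9e-12). Wnt5b, a ligand that acts largely outside beta-catenin, had 10004, 7942, 7881, 6933 and 9613 in hypertrophic arrays, against 454.9, 712.1, 556.2, 1053 and 1001 in resting arrays (log2 fold change 3.52 ± 0.17, adjusted p = 3.46e-14). Neither ligand overlapped between zones, and the transition zone had higher means (8467 and 9499) than the hypertrophic zone (6529 and 8475). Lrp4, a receptor-related protein that binds Wnt inhibitors, rose by 2.29 ± 0.30 and Tcf7l2, a nuclear partner of beta-catenin, by 1.72 ± 0.14. Their transition means, 130.8 and 4944, stayed near the resting means of 194.9 and 4284. Fzd2, a Wnt receptor, fell by 2.90 ± 0.22. Among the inhibitors, Sfrp1 had 160.2, 149.3, 144.3, 145.6 and 219.2 in hypertrophic arrays, against 3451, 2600.4, 2306, 3708 and 3693 in resting arrays (log2 fold change -4.13 ± 0.18, adjusted p = 5.77e-15). Sfrp2 fell by 2.50 ± 0.33. Frzb, a bright inhibitor gene, had 8539.5 to 18647 in hypertrophic and 26018 to 38189 in resting arrays (log2 fold change -1.05 ± 0.17, adjusted p = 2.67e-05), and it stood just under 2-fold without animal 1 (-0.99) or the hypertrophic array of animal 4 (-0.92). Wif1 was not called (0.75 ± 0.33), nor was Ctnnb1, which encodes beta-catenin (0.16 ± 0.15).

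**Figure D4:**
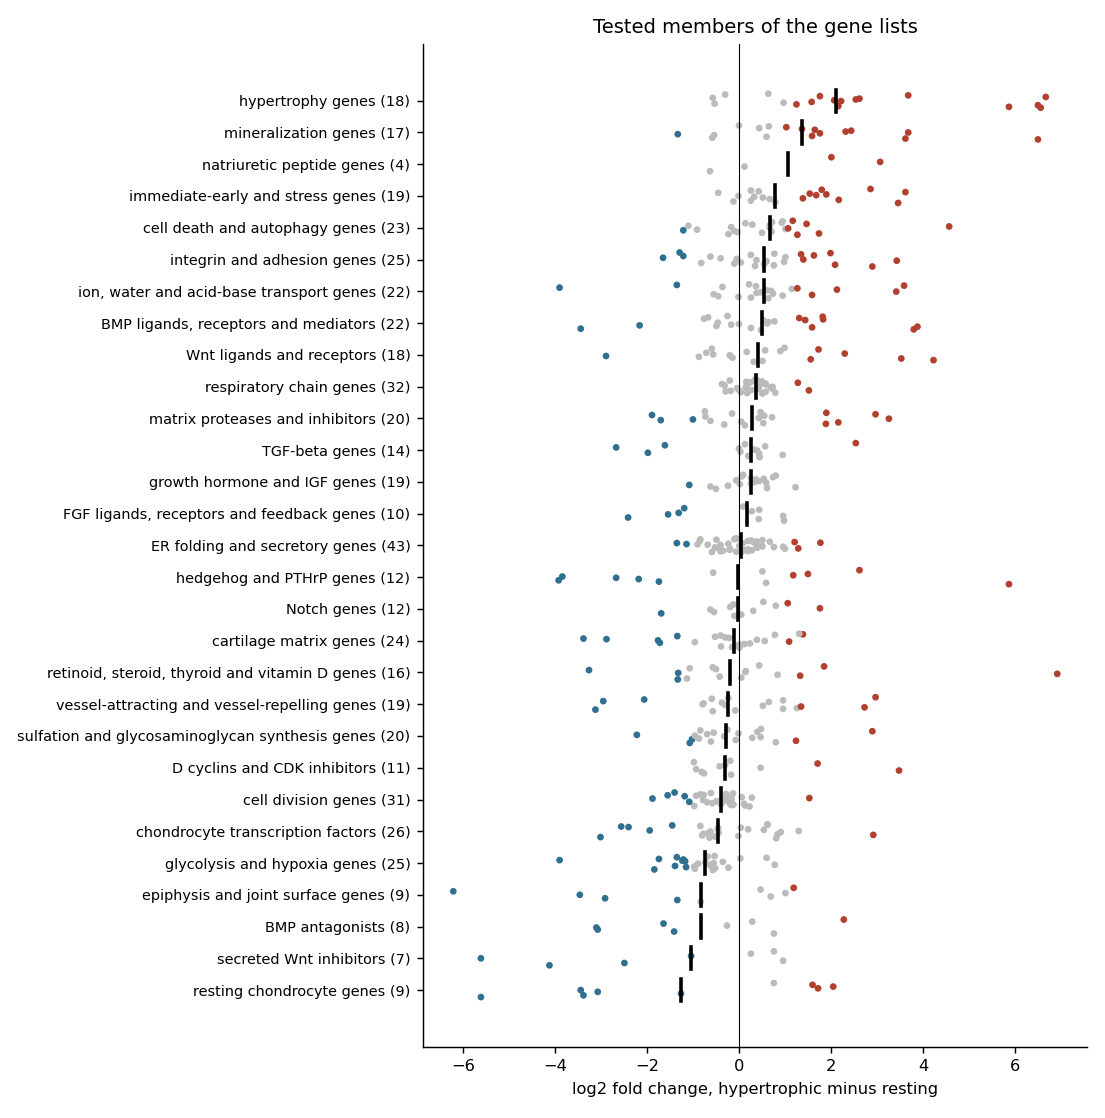
Each point is a tested member of the list named at the left (number tested in brackets), placed by its log2 fold change, hypertrophic minus resting, with red for members called higher, blue for members called lower and grey for the rest. Black bars are list medians, which run from -1.27 for resting chondrocyte genes to 2.11 for hypertrophy genes.

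Other growth factor lists are given beside all genes, of which 10.1% rose and 10.2% fell. Of 10 tested FGF genes, 0 rose and 4 fell. Fgfr2, a receptor gene of early cartilage, had 500.1, 465.5, 660.3, 1071 and 572.1 in hypertrophic arrays, against 4326, 2633, 3399.7, 3942 and 3017 in resting arrays (log2 fold change -2.42 ± 0.17, adjusted p = 2.03e-11), although a dim second probe set stood at -0.36 ± 0.43. Fgfrl1, a receptor without a kinase, fell by 1.32 ± 0.20 and Fgfr4 by 1.55 ± 0.31. Fgfr3, the receptor that restrains growth plate activity, just missed the 2-fold limit at 0.95 ± 0.17 without overlap between groups, 16365 to 36051 in hypertrophic and 12138 to 16008 in resting arrays, and passed it without the hypertrophic array of animal 4 (1.11). Etv1, a factor induced by FGF signalling, fell by 1.20 ± 0.32, but not without animal 5 (-0.76, under 2-fold). Of 14 TGF-beta genes, 1 rose and 3 fell: Inhba, the activin A subunit, rose by 2.53 ± 0.42, and Tgfbi, an adhesive matrix protein induced by TGF-beta, had 1541 to 3010.2 in hypertrophic and 12636 to 19199 in resting arrays (log2 fold change -2.68 ± 0.19, adjusted p = 3.54e-11). Ltbp1, which stores TGF-beta in the matrix, fell by 1.99 ± 0.30 and the repressor Tgif1 by 1.62 ± 0.31. Of 19 growth hormone and IGF genes, 0 rose and 1 fell, Igf2r, which clears IGF-II (-1.09 ± 0.13, and -0.77 ± 0.14 in a second probe set that was not called). Igf2 itself was bright at both ends and not called (-0.63 ± 0.20), and neither Igf1 (1.22 ± 0.55, with overlapping groups) nor Ghr (-0.51 ± 0.21) was called. Igf1 was called higher in a fit on only the 10 arrays compared (adjusted p = 0.0196) or the 15 of like labels (adjusted p = 0.0211). Of 4 natriuretic peptide genes, which favour growth through cyclic GMP, Npr3, the clearance receptor, rose by 3.06 ± 0.49 and Prkg2, the cyclic GMP-dependent kinase, by 2.00 ± 0.21, while the signalling receptor gene Npr2 stood at 0.11 ± 0.15.

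Of 16 hormone and retinoid genes 3 rose and 3 fell, against 10.1% and 10.2% of all genes. Beside Aldh1a3, Thrb, a thyroid hormone receptor, rose, with 5202 to 10583 in hypertrophic and 1438 to 2611 in resting arrays (log2 fold change 1.84 ± 0.17, adjusted p = 4.6e-09), although a dimmer probe set was not called (0.93 ± 0.26). Rbp4, the retinol carrier, had 271.1, 439.7, 369.1, 1031 and 461.2 in hypertrophic arrays, against 5662, 5399.6, 3587, 5519 and 3469 in resting arrays (log2 fold change -3.27 ± 0.25, adjusted p = 1.56e-10). Cyp26b1, which degrades retinoic acid, fell by 1.33 ± 0.21 in its bright probe set and stood at -0.03 ± 0.37 in a dim one. Rara, a retinoic acid receptor, fell by 1.34 ± 0.32, but not without animal 1 (-0.90). Of 12 Notch genes 2 rose and 1 fell, all dim: Hey1, a Notch target, rose by 1.75 ± 0.51, Mfng, which modifies Notch, by 1.05 ± 0.38, and Jag1, a ligand, fell by 1.70 ± 0.47. Mfng was not called without any 1 of animals 2, 4 and 5 (adjusted p between 0.121 and 0.155), nor Jag1 without animal 1 (adjusted p = 0.0515).

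The fibril collagens Col2a1 and Col11a1 were not called, and several smaller matrix proteins were. Of 24 cartilage matrix genes, 2 rose and 5 fell, against 10.1% and 10.2% of all genes. Col2a1, the chief cartilage collagen, had 138434, 69446, 42167, 50198 and 73711 in hypertrophic arrays, against 116840.0, 49112, 66571, 49174 and 79084 in resting arrays (log2 fold change 0.00 ± 0.21, adjusted p = 0.993). Col11a1, its partner in the fibril, stood at -0.03 ± 0.20. Among the brightest probe sets, the arrays of animal 1 were highest in both zones for Col2a1, Col11a1 and the non-coding RNA H19 (0.08 ± 0.18). Fmod, which binds and spaces collagen fibrils, had 3794, 3552, 4999, 2312 and 1982 in hypertrophic arrays, against 29205, 20734, 24650.2, 18769.9 and 25069.7 in resting arrays (log2 fold change -2.89 ± 0.20, adjusted p = 2.03e-11). Matn1, a filament-forming matrix protein, fell by 1.73 ± 0.22. Prelp, a small proteoglycan, fell by 1.77 ± 0.27, with its highest mean in the proliferative zone (3814). Fn1, fibronectin, rose to 17714 to 26924 in hypertrophic arrays, against 7549.6 to 10082 in resting arrays (log2 fold change 1.38 ± 0.13, adjusted p = 5.28e-09). Of 9 genes linked to the epiphysis and joint surface, 4 fell and 1 rose: beside Efemp1, Abi3bp and Vit, both matrix proteins, fell by 3.47 ± 0.32 and 2.92 ± 0.30, Dcn, the proteoglycan decorin, by 1.35 ± 0.31, and Clec3a, a cartilage lectin, rose by 1.18 ± 0.16.

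Among 20 genes of sulfation and glycosaminoglycan synthesis 2 rose and 3 fell, against 10.1% and 10.2% of all genes. Has2, which makes hyaluronan, had 8002, 5455, 7378, 2523 and 3568 in hypertrophic arrays, against 911.0, 740.8, 530.0, 723.0 and 451.1 in resting arrays (log2 fold change 2.89 ± 0.24, adjusted p = 7.63e-10). Chpf, which helps extend chondroitin chains, rose by 1.23 ± 0.17, while Extl1, a heparan sulfate enzyme, fell by 2.23 ± 0.18. Csgalnact1, which starts chondroitin chains, fell by 1.03 ± 0.16, but by less than 2-fold without animal 2 (-0.98) or the hypertrophic array of animal 4 (-0.85). Papss2, Ext2 and Chsy1 were not called (-0.02 ± 0.15, -0.97 ± 0.17 and 0.79 ± 0.17), although a dimmer Papss2 probe set was called higher (1.04 ± 0.30) and Ext2 was called lower without animal 3 (-1.17), animal 4 (-1.03) or the hypertrophic array of animal 4 (-1.02). Of 20 matrix proteases and inhibitors, 5 rose and 3 fell. Adamts1, an aggrecan-cleaving protease, had 1012 to 1710.0 in hypertrophic and 43.8 to 202.3 in resting arrays (log2 fold change 3.25 ± 0.29, adjusted p = 2.52e-09), and Timp3, an inhibitor of such proteases, had 8723 to 16670.0 in hypertrophic and 1208 to 1999.8 in resting arrays (log2 fold change 2.96 ± 0.24, adjusted p = 4.51e-10). Mmp16, a membrane protease, fell by 1.71 ± 0.27. Timp2 had 1044, 1042, 1022, 7919 and 590.4 in hypertrophic arrays, against 7452, 4528, 5046, 4442 and 5318 in resting arrays (log2 fold change -1.90 ± 0.36, adjusted p = 0.000133), with the hypertrophic array of animal 4 alone at the resting level. Without animal 2, 3 members of the protease list rose. Without the hypertrophic array of animal 4, 3 rose and 5 fell, with Serpine2, a protease inhibitor that was not called over all arrays (-0.75 ± 0.33), at -1.25 (adjusted p = 8.2e-05).

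Of 19 vessel-related genes 3 rose and 3 fell, beside the same shares of all genes. Nrp1, a co-receptor of VEGF and semaphorins, had 12159, 9792, 7148, 8569 and 12833 in hypertrophic arrays, against 1802, 963.4, 1794, 1949 and 1187 in resting arrays (log2 fold change 2.72 ± 0.21, adjusted p = 1.57e-10). Vegfc, a growth factor of lymphatic vessels, had 95.5, 85.3, 89.4, 112.7 and 279.8 in hypertrophic arrays, against 1136, 1155, 1192, 1204 and 1151 in resting arrays (log2 fold change -3.13 ± 0.42, adjusted p = 1.68e-06). Resting values of Vegfc were nearly the same in all animals. Thbs2, a matrix protein that opposes vessel growth, fell by 2.96 ± 0.27 and the chemokine receptor gene Cxcr4 by 2.07 ± 0.28. Cnmd, the cartilage protein chondromodulin that repels vessels, was bright in both zones and not called (-0.31 ± 0.18), and Ccn2 stood at -0.78 ± 0.20.

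Of 25 tested genes of glycolysis and the response to low oxygen, 0 rose and 9 fell at the hypertrophic end, at a median of -0.74 against 0.00 over all genes. Car9, a carbonic anhydrase induced by low oxygen whose promoter is shown above, had 119.7, 17.2, 123.3, 72.2 and 16.5 in hypertrophic arrays, against 486.3, 890.3, 1202, 1454 and 1660.1 in resting arrays (log2 fold change -3.91 ± 0.36, adjusted p = 2.92e-09). The groups did not overlap, and the highest zone mean was 1907, in the proliferative zone. Egln1, the oxygen sensor that marks HIF for destruction, fell by 1.75 ± 0.21, Pfkfb3, which speeds glycolysis, fell by 1.40 ± 0.20, Bnip3, a mitochondrial protein induced by low oxygen, fell by 1.22 ± 0.21 and the glycolytic enzyme Pfkm by 1.16 ± 0.12, the last not called in a dim second probe set (-0.39 ± 0.58). Pgk1, a bright glycolytic enzyme, had 14678 to 24543 in hypertrophic and 30881 to 45155 in resting arrays and just missed the 2-fold limit (log2 fold change -0.90 ± 0.18, adjusted p = 0.000321), while its second probe set was called at -1.07 ± 0.19. Ldha, which makes lactate, was not called (-0.36 ± 0.17). Of 32 respiratory chain genes 2 rose and 0 fell (median 0.36), among them Cox6a1 at 1.27 ± 0.16. Ndufv1, Ndufa9 and Cyc1 did not overlap between zones but differed by less than 2-fold (0.71 ± 0.11, 0.57 ± 0.15 and 0.58 ± 0.15). Epas1, the hypoxia-inducible factor HIF-2 alpha, rose: it had 4301, 4955, 3111, 3955 and 3668 in hypertrophic arrays, against 787.5, 342.6, 778.7, 364.0 and 450.5 in resting arrays (log2 fold change 2.91 ± 0.25, adjusted p = 8.3e-10).

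Epas1 was the member of a list of 26 chondrocyte transcription factors that rose, and 5 fell. Shox2, a homeobox factor of limb growth, had 5231, 4382, 3544, 2786 and 2986 in hypertrophic arrays, against 15293, 12185, 13434, 15236 and 15689.8 in resting arrays (log2 fold change -1.95 ± 0.19, adjusted p = 6.54e-09). Nfia, a nuclear factor I protein, fell by 2.41 ± 0.22, its relative Nfib fell by 2.57 ± 0.28, and Zbtb20, a zinc finger repressor, by 1.46 ± 0.17. Trps1, a GATA-type repressor of chondrocytes, was not called (-0.53 ± 0.14). Of 31 cell division genes, 1 rose and 5 fell (median -0.40). The falls included Ska1, of the spindle (-1.89 ± 0.29), and the replication genes Mcm4 (-1.56 ± 0.28), Prim1 (-1.41 ± 0.23) and Mcm2 (-1.19 ± 0.27). Cks2, a partner of cyclin-dependent kinases, was the member that rose (1.52 ± 0.15). Pcna and Mcm7 were not called (-0.27 ± 0.29 and -0.29 ± 0.18). Without the hypertrophic array of animal 4, 9 members fell, and without animal 5, 8 did. Mcm2 was not called without animal 1 (-0.92). Cdkn1a, the cell cycle inhibitor p21, had 5470.5, 6767, 6480.4, 5454 and 7287 in hypertrophic arrays, against 359.8, 374.6, 388.9, 857.5 and 1109.9 in resting arrays (log2 fold change 3.47 ± 0.20, adjusted p = 5.88e-13). Every hypertrophic array lay well above every resting array. Rb1 rose by 1.70 ± 0.27. Cdkn1c, which encodes the inhibitor p57 and was among the brightest genes in both zones, was not called (0.46 ± 0.19), nor were Cdkn1b, Ccnd2 and Ccnd3 (-0.94 ± 0.16, -0.77 ± 0.19 and -0.82 ± 0.16). Cdkn1b was called without the hypertrophic array of animal 4 (-1.07).

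Genes of membrane transport, survival and adhesion changed in both directions. Of 22 ion, water and acid-base transport genes, 5 rose and 2 fell, against 10.1% and 10.2% of all genes. Piezo1, a channel opened by stretch, had 16253, 15474, 11766, 12658 and 19105 in hypertrophic arrays, against 1339, 1187, 942.3, 1615 and 1143 in resting arrays (log2 fold change 3.58 ± 0.14, adjusted p = 1.22e-15). Atp1b1, a subunit of the sodium pump, rose by 3.41 ± 0.22 and Car2, a carbonic anhydrase, by 2.12 ± 0.28. Clcn3, a chloride exchanger, fell by 1.36 ± 0.20 in its brightest probe set, and fell by 1.01 ± 0.25 in a dimmer one, while 2 others were not called (-0.17 ± 0.27 and -0.72 ± 0.22). Of 23 cell death and autophagy genes, 6 rose and 1 fell. Diablo, a mitochondrial protein that frees caspases from their inhibitors, had 16913, 17661, 16561, 13587 and 22509 in hypertrophic arrays, against 677.5, 552.6, 695.1, 729.7 and 974.3 in resting arrays (log2 fold change 4.56 ± 0.16, adjusted p = 4.11e-16). This rise was the largest of the list and the groups were far apart. Bcl2l11, the death-promoting protein BIM, rose by 1.73 ± 0.28, Atg7 by 1.46 ± 0.21 and Ulk1 by 1.16 ± 0.16, the last 2 being autophagy genes. A second probe set of each was not called (0.45 ± 0.40, 0.77 ± 0.19 and 0.28 ± 0.39). Bnip3l stood at -0.92 ± 0.13, or -1.04 and called without the resting array of animal 1. Of 25 integrin and adhesion genes, 7 rose and 3 fell. Itga6 and Itga1, integrin subunits for laminin and collagen, rose by 2.08 ± 0.16 and 2.89 ± 0.28, the glypicans Gpc4 and Gpc1 by 1.98 ± 0.16 and 1.34 ± 0.17, and Ncam1 fell by 1.66 ± 0.23. A dim second Itga6 probe set was not called (0.11 ± 0.33), and without the hypertrophic array of animal 4 the members of the adhesion list that fell were 5.

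Of 43 endoplasmic reticulum and secretory genes, 3 rose and 2 fell (median 0.04), against 10.1% and 10.2% of all genes. Dnajb11 and Creb3l1 rose by 1.20 ± 0.13 and 1.28 ± 0.22, and Plod1, a collagen-modifying enzyme, fell by 1.15 ± 0.16, or just under 2-fold without animal 4 (-0.99). Ero1a, an oxidase of protein folding that low oxygen induces, fell by 1.36 ± 0.24, although a dim second probe set stood at -0.38 ± 0.31. Immediate-early and stress genes were higher in 9 of 19 and lower in 0 (median 0.78). Fos, a subunit of the AP-1 dimer, had 3106, 5821, 1595, 2871 and 2654 in hypertrophic arrays, against 304.9, 244.5, 102.8, 309.7 and 428.7 in resting arrays (log2 fold change 3.45 ± 0.35, adjusted p = 1.73e-08). Hspb1, a small heat shock protein, rose by 3.61 ± 0.31, the growth arrest gene Gadd45b by 2.85 ± 0.19, Junb by 2.16 ± 0.39 and Dusp1 by 1.67 ± 0.28. Jund and Dnajb1 were not called (0.66 ± 0.14 and 0.42 ± 0.16).

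Of the markers of other cell types, those of erythroid cells, leukocytes, osteoclasts with macrophages, and bone rose in most members, while 1 endothelial marker of 8 rose, near the 10.1% over all genes. Erythroid markers rose in 5 of 6, and their summed signal was 10382 to 34341 in hypertrophic and 4048 to 9599 in resting arrays. Leukocyte markers rose in 5 of 8, with sums of 4391 to 15779 in hypertrophic and 1360.4 to 7400 in resting arrays, and Ptprc, Cd53 and Coro1a were below the array median in every resting array. Coro1a was not called without any 1 of animals 2, 3 and 4 (adjusted p between 0.0539 and 0.0791), or without the hypertrophic array of animal 4 (adjusted p = 0.0711), and Ptprc, not called over all arrays, was called without animal 3 (1.39, adjusted p = 0.0365). Osteoclast and macrophage markers rose in 5 of 9, with sums of 9515 to 87017 in hypertrophic and 1777 to 26063 in resting arrays. Ctsk and Acp5, osteoclast enzymes named after their values were seen, were highest in the hypertrophic array of animal 4, at 28896 and 26297, against at most 2505 and 1969 in the other hypertrophic arrays. Without that array Ctsk stood at 0.88 (adjusted p = 0.205), and it was also not called without animal 2 (adjusted p = 0.0578) or animal 5 (adjusted p = 0.097). In the resting zone Acp5 was highest in animal 1, at 8290.5, against at most 1199 in the others. Acp5 was not called over all arrays, but was called without the resting array of animal 1 (2.37, adjusted p = 0.0258). Without the hypertrophic array of animal 4, 1 of the 9 osteoclast and macrophage markers and 2 of the 8 leukocyte markers rose, and without animal 2 these counts were 2 and 1. Without animal 5, 2 of the osteoclast and macrophage markers rose. Osteoblast and bone markers rose in 4 of 5, with sums of 50328 to 139246 in hypertrophic and 4662 to 16047 in resting arrays. They include Ibsp and Dmp1 of the mineralization list, and Col1a1 and Col1a2 of the perichondrium and fibroblast list. These counts are therefore not separate from those of the other lists. Ibsp alone had 20442 to 40877 in hypertrophic arrays. Muscle markers rose in 1 and fell in 4 of 13, and their sums overlapped, at 32566 to 92947 in hypertrophic and 21118 to 125009 in resting arrays.

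Perichondrium and fibroblast markers rose in 3 and fell in 3 of 17 (6 rose without animal 3), with log2 fold changes from -2.87 to 2.60 (median 0.65). Their sums, which are weighted towards the brightest members, were 61943 to 186654 in hypertrophic and 35092 to 59942 in resting arrays. Col1a1, the main bone and fibre collagen, had the largest rise of this list. Its signals were 6945, 3516, 8406, 39364 and 13606 in hypertrophic arrays, against 3279.9, 589.7, 2545, 1732 and 1477 in resting arrays. No endothelial marker fell, and their sums overlapped, at 1943 to 5142 in hypertrophic and 1340.0 to 3517 in resting arrays. Chondrocyte markers rose in 1 and fell in 1 of 6, with overlapping sums of 154625 to 386488 in hypertrophic and 160390.2 to 297518 in resting arrays. The part of these other cells in the rises and falls above was not tested. Without the hypertrophic array of animal 4, Col10a1, Ihh, Alpl, Panx3, Pth1r, Gli1, Boc and Sfrp5 kept their calls, at 6.55, 6.12, 6.68, 6.81, 2.78, -3.86, -4.00 and -5.57 on the log2 scale.

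**Figure D5:**
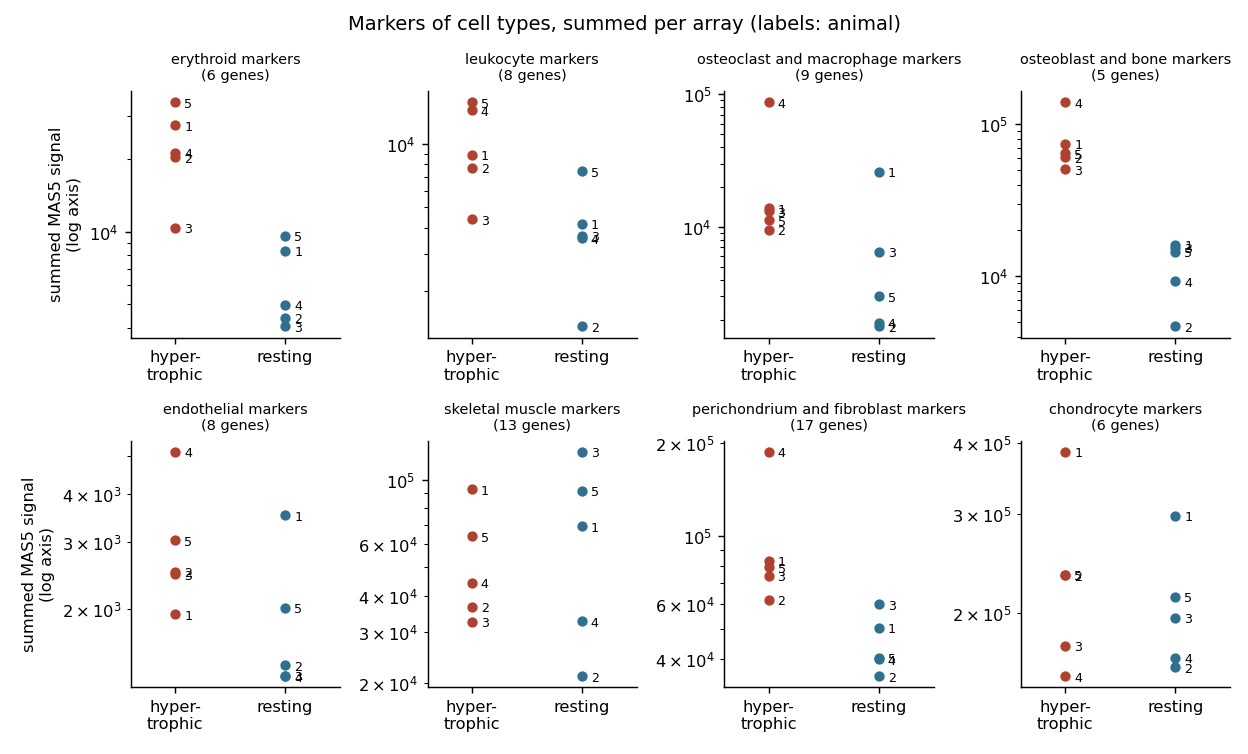
Summed MAS5 signal (log axis) of the tested markers of 8 cell types in each hypertrophic (left) and resting (right) array, with the animal's number beside each point. The hypertrophic array of animal 4 stands apart for osteoclast and macrophage markers (87017) and for perichondrium and fibroblast markers (186654), and chondrocyte markers overlap between zones.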

How the data were processed

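Proximal tibial cartilage of 5 male rats was microdissected by hand, and biotin-labelled targets were made from 50 to 100 ng of total RNA per array, per the labels' protocols. The authors deposited 1 intensity per probe set and array, which the submitters' processing notes name as a MAS5 signal (version not given in the sources used here). Trimmed by 2% at each end, the array means were 500.1 to 500.2, so the arrays had been scaled to one level before deposit. Detection calls were not used here.

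The analysis used log2(signal + 16) without further normalization. Of 31099 probe sets in 24 arrays, 57 controls were left out, and the 19237 (62%) above their array's median in at least 4 arrays were tested. Names came from the platform annotation, in which 20826 probe sets that are not controls have 1 symbol, 436 several and 9780 none. Only those with 1 symbol were named, and where several were tested the one brightest on the log2 scale stood for the gene. The fit, in limma 3.58.1 (eBayes with trend) under R 4.3.3, took all 24 arrays, with the animal as a fixed block leaving 15 residual degrees of freedom, and Benjamini-Hochberg adjustment ran over all tested probe sets. Rose, fell and changed are used only of differences of at least 2-fold whose adjusted p was below 0.05.

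The pairing by animal comes from the labels, whose sample descriptions give the number of the animal for each array. Across probe sets, the 5 pairs of arrays from 1 animal had a median correlation of 0.155 in their departures from the zone means (from -0.107 to 0.212), against -0.028 for the 20 pairs of different animals. No arrays were duplicates, with at most 36 identical values between 2 arrays of a zone. On simulated data over 19237 probe sets for this comparison, the fit recovered 74 of 100 changes of 3-fold and 99 of 100 of 6-fold, with 5 false calls. Only 100 probe sets were changed at each fold there, against 4052 called in the data. The simulated residuals were independent and normal, without arrays that stand apart. These rates therefore do not carry over directly to the real comparison.

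Named genes are the 15 largest rises and 15 largest falls that moved the same way in 5 animals, every tested hypertrophy and hedgehog gene, and up to 5 members by adjusted p and 2 by signal of each other list. Acan, Acp5, Cd53, Clu, Col1a1, Coro1a, Ctsk, Dmp1, Meg3, Phex, Ptprc, Smad6 and Smad7 fall outside this rule and were chosen after their values were seen. The 38 lists, 29 of biology and 9 of cell type markers, and the members compared were chosen with earlier results of these data known. Alternatives were quantile normalization, scaling to one median, adding 1 or 64 before the logarithm, array weights, a fit without the trend, and a filter on low signals that was dropped, raised to the 75th percentile or limited to the 10 arrays compared. The fit was also run without the replicate block, with a random one, without each animal in turn, and on the 10 arrays compared or the 15 of like labels. Leaving out the hypertrophic array of animal 4 or the resting array of animal 1 was added after seeing the data. Figures were drawn with matplotlib 3.10.9.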

Additional observations from a re-analysis of the deposited data

Results flagged for a closer look

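A value was looked at again when 1 of the 5 arrays of a zone stood apart from the other 4 by Dixon's test. Of 428 groups of 5 arrays examined (the genes named, the summed markers of 8 cell types and 3 quality measures), 29 (6.78%) had such an array, where chance alone gives about 5%. That rate holds for groups chosen without sight of their values. Some of these genes were named after their values were seen, and Acp5 is also part of a marker sum. The hypertrophic array of animal 4 was the one standing apart in 15 of the 29.

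In that array the summed osteoclast and macrophage markers reached 87017, against 9515 to 13830 (13829.5) in the other hypertrophic arrays, and the summed perichondrium and fibroblast markers 186654, against 61943 to 82831. Acp5, an osteoclast phosphatase, stood at 26297 there, against 959.5 to 1969. It was also high for Spp1 (21853, against 1092 to 1625), Timp2 (7919, against 590.4 to 1044), Srpx2 (3232, against 565.9 to 797.8), Cd200 (2717, against 787.2 to 1099), Wif1 (1077, against 147.5 to 231.0), Bmp3 (969.8, against 74.6 to 150.5) and Bcl2l11 (1011, against 787.7 to 842.7). The same array was low for Ihh (6204, against 10515 to 12716), Aldh1a3 (3449.7, against 5024 to 5490.0), Bmp6 (2361, against 4303 to 4797), Frzb (8539.5, against 15675 to 18647) and Fgfrl1 (1998, against 2969 to 3354). The cause was not tested.

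Among the other hypertrophic arrays, animal 2 was low for Bmper (9.1, against 114.3 to 181.9) and high for Lrrn3 (61.4, against 6.6 to 10.1). Animal 1 was low for Ltbp1 (91.2, against 287.2 to 407.0) and animal 3 for Car2 (945.6, against 2531 to 3242). Animal 5 was high for Sfrp1 (219.2, against 144.3 to 160.2) and Vegfc (279.8, against 85.3 to 112.7).

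Among resting arrays, animal 1 was low for Bnip3 (3732, against 7802 to 9718) and Gdf10 (179.0, against 329.7 to 396.7) and high for Cnmd (42815, against 25598 to 27799) and Rfx4 (68.5, against 1.6 to 6.5). Animal 3 was low for Pfkfb3 (570.4, against 1049 to 1228) and high for Twsg1 (11528.5, against 4968 to 6149). Animal 4 was low for Itgbl1 (1907, against 2965 to 3332) and animal 5 for Pnpla3 (31.3, against 97.8 to 127.9).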

How the results depend on the processing

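Over 20 alternatives, the counts of 1793 probe sets higher and 2259 lower stayed within 1.5 times, except with a filter at the 75th percentile, which left 1094 higher and 1363 lower because fewer probe sets (10105) were tested. Leaving out each animal gave 1617 to 1810 higher and 2129 to 2308 lower. With no replicate block the counts were 1740 and 2213, and only the calls of Sufu and Ctsk were lost among the genes named. Of 156 called genes named, 141 kept their call under every alternative that tested them. For the 15 others the report names the animals whose absence ended the call. Other settings that ended a call were a fit on only the 10 arrays (Ctsk, Mfng, Phex and Sufu), on 15 arrays (Phex), a pseudocount of 64 (Mfng and Sufu), array weights (Coro1a, Csgalnact1 and Frzb), quantile normalization (Frzb), no trend (Ctsk and Sufu) and no filter (Sufu). Some settings instead gave a call to a gene without one. Igf1 was called on the 10 or 15 arrays and with a pseudocount of 64. Ptprc was called without the replicate block, with a random one and without the trend. Quantile normalization gave calls to Bnip3l, Cdkn1b and Ext2, and array weights to Fgfr3. Genes that were not called changed sign: Col11a1 (0.04 with array weights, 0.03 without the hypertrophic array of animal 4, -0.14 to 0.10 without 1 animal), Papss2 (0.05 with array weights, 0.11 without the hypertrophic array of animal 4, -0.11 to 0.11 without 1 animal), Col2a1 (-0.07 with quantile normalization, 0.00 when scaled to one median, -0.12 to 0.17 without 1 animal), and, without 1 animal, Pcna (-0.59 to 0.05), H19 (-0.04 to 0.28) and Stk36 (-0.03 to 0.76). The cause was not tested. Counts of list members called in 1 direction moved by over 1.5 times for 4 to 16 of 76 without 1 animal, the most without animal 4. They did so for 13 of 76 without the hypertrophic array of animal 4 and for 3 of 76 without the resting array of animal 1. For dim genes the fold rests on levels near background.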
